A study of Mus musculus with 162 samples.

Results

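The serpins are a family of protease inhibitors and related proteins, and their genes were followed here across 9 organs of fasted and fed mice. Members were all rows of the deposited gene table whose symbol is Serpin followed by a clade letter from a to i, a number and at most 1 further letter. The rule took 63 of 53686 genes: 25 of clade a, 27 of clade b, 3 of clade e, 2 each of clades f and i, and 1 each of clades c, d, g and h. A further 5 rows with a serpin symbol are pseudogenes by name and fell outside the rule.

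The study asked how the transcriptome of each organ changes over a short fast. Male C57BL/6J mice aged 8 to 9 weeks, without transgene or drug, were either fed ad libitum (0 h) or kept without food, but with water, for 2, 8, 12, 18 or 22 h, with 3 mice per time point. Every mouse was killed shortly after lights-off, so that the length of the fast varied and the clock time of collection did not. Each of the 18 mice gave 4 parts of the nervous system, the olfactory bulb (OB), the cerebellum (CBL), the brainstem (BST, mesencephalon to myelencephalon) and the rest of the brain (BRN, telencephalon with diencephalon). The same mice gave stomach (STM), liver (LIV) and 3 fat depots, which were the brown depot between the shoulder blades (iBAT), the white perigonadal depot (pgWAT) and the white subcutaneous depot at the hind end (psWAT). With a single sex, strain and age, the values describe no other mice.

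A typical serpin offers an exposed reactive centre loop as bait, and a protease that cuts it is trapped as the loop inserts into the body of the inhibitor. Clade a and most of the smaller clades are secreted, many of them from the liver into plasma, where they restrain elastase, clotting factors, plasmin and complement. Clade b serpins mostly stay inside cells, and a few serpins inhibit nothing and instead carry hormones or fold collagen.

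Levels are given as counts per 1000000 counts of the library (CPM), scaled by the TMM factor of each library (edgeR's correction for composition). All libraries but 5 that the study's quality control removed (1 each of STM, iBAT and psWAT and 2 of BRN, with 130701 to 4590060 counts) were used. These had totals of 3045845 to 27801717 counts and a median of 8735554, and 3 counts correspond to 0.108 to 0.985 CPM. Each organ carried its defining markers. Many libraries also held markers of another tissue, and 7 of them, picked for epididymis, hepatocyte or cerebellar markers, were left out together in an alternative. In pgWAT, the 6 epididymis markers summed to 20672 CPM in 18 h replicate 3, 19509.7 in 22 h replicate 2, 2449 in 2 h replicate 2 and 619 in 22 h replicate 3, against a median of 11.8. Hepatocyte markers reached 4358 CPM in pgWAT 18 h replicate 2 (median 28.5) and 3267 in STM 12 h replicate 2 (median 1453). That list includes Ttr, which choroid plexus also makes, and it reached 4299.7 CPM in CBL and 3157 in BST, so it does not mark hepatocytes alone. Cerebellar markers reached 2175 CPM in psWAT 12 h replicate 3. Other libraries with foreign markers stayed in throughout. Pancreatic acinar markers summed to 781 CPM in STM 0 h replicate 3 (median 71.2) and 423 in psWAT 12 h replicate 1 (median 4.59), skeletal muscle markers to as much as 22743 in psWAT and 13826 in iBAT, and gastric gland markers to 453 in an iBAT library (median 2.05). In such bulk samples fewer cells of a type and less RNA per cell cannot be told apart.

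Serpin expression was divided by organ. A median above 1 CPM in at least 1 organ was reached by 46 members, and the organ with the highest median was LIV for 18, STM for 11, pgWAT for 8, psWAT for 6, OB for 2 and BST for 1. For 27 members every library of that organ lay above every library of the other 8. This held for 16 members in LIV, 8 in STM and 1 each in OB (Serpini1), BST (Serpinb1b) and pgWAT (Serpina3b). No matching count over all genes is given, so these numbers describe the members only. At the other end, 9 members had a median above 1 CPM in all 9 organs: Serpina3n, Serpinb1a, Serpinb6a, Serpinb6b, Serpinb9, Serpine2, Serpinf1, Serping1 and Serpinh1. The members together took a median of 3.09% of all counts in LIV, 0.227% in pgWAT and 0.0345% in iBAT, the highest and lowest organs being LIV and iBAT.

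**Figure D1:**
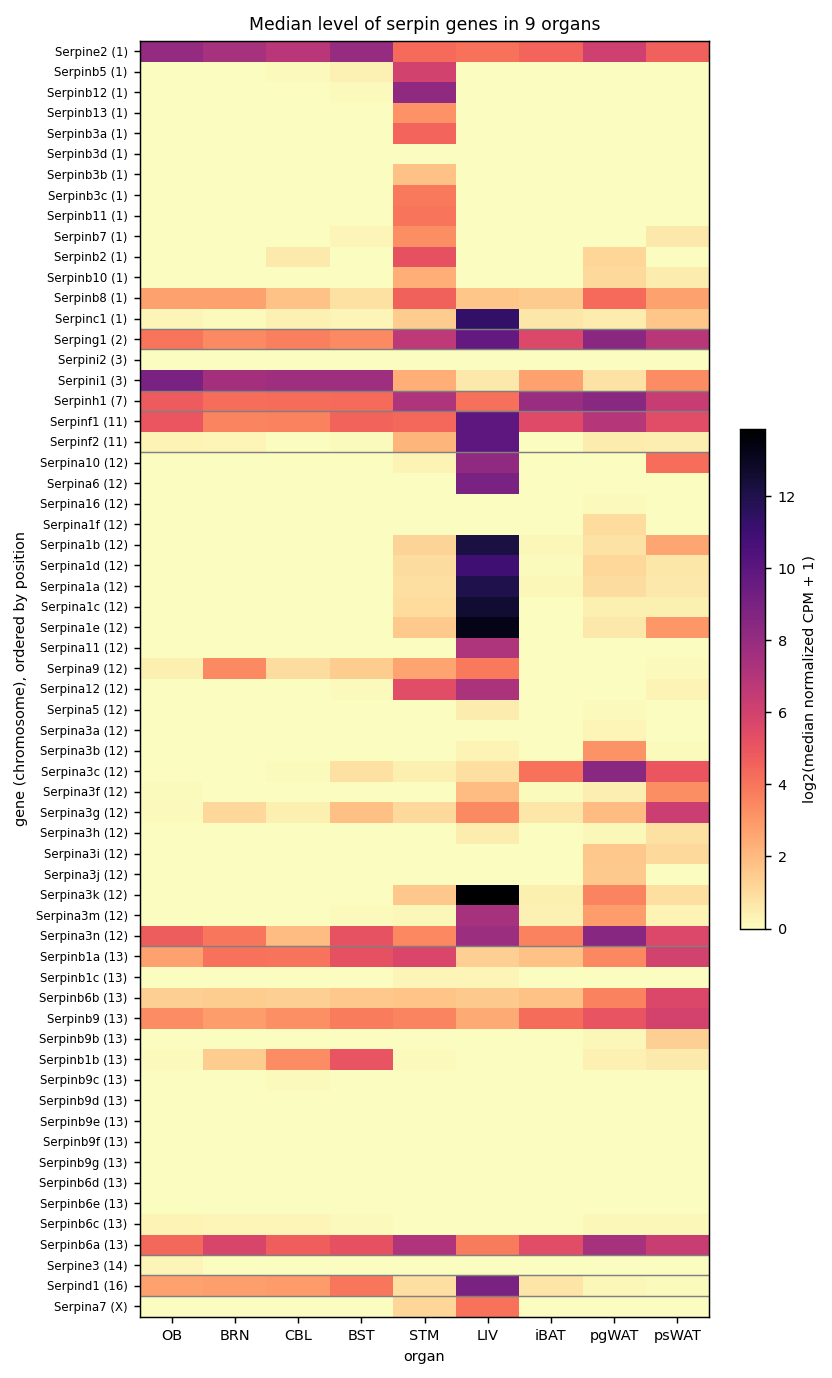
Median level of serpin genes (rows, in chromosome order, chromosome in brackets) in each organ (columns), as log2(median normalized CPM + 1) on a colour scale from pale (0) to dark. The darkest cells are those of Serpina3k, the 5 antitrypsin genes of chromosome 12 and Serpinc1, all in LIV. The run from Serpinb5 to Serpinb10 on chromosome 1 stands out in STM, and the rows from Serpinb9c to Serpinb6c on chromosome 13 are pale throughout.

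Each organ was also tested against the mean of the other 8 with edgeR's quasi-likelihood test, calling a gene at an adjusted p under 0.05 and a log2 fold change (log2FC) beyond 1 in size. Of 49 members with enough counts, 23 were called higher in LIV, where 21.4% of all genes tested were. STM had 29 higher (20.5% of all genes), pgWAT 30 (23%) and psWAT 20 (25.1%). Higher calls were fewer in BST with 6 (24.3%), BRN with 4 (23.2%), CBL with 3 (20.6%), iBAT with 3 (19.1%) and OB with 2 (22.1%). Without those 7 libraries the pgWAT count was 25, that of psWAT 21 and that of STM 29. A member could enter the test through the single organ in which it was high, so these counts describe where the family is expressed. Tests of single members against the other organs are likewise descriptions, since those members were named for a high level in the organ.

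LIV held the plasma inhibitors. Alpha-1-antitrypsin, the inhibitor of neutrophil elastase, is encoded in the mouse by several neighbouring genes, and Serpina1e had the highest CPM of these, 9880.4 CPM (lowest 7069, highest 15778) over 18 libraries. Serpina1c stood at 6307 CPM (lowest 4712, highest 7541), Serpina1b at 4791 CPM (lowest 4244, highest 6112), Serpina1a at 4139 CPM (lowest 3555, highest 5351) and Serpina1d at 1959 CPM (lowest 1369, highest 2769). Outside LIV, without the 7 libraries left out for foreign markers, their highest library was at most 68.3 CPM for any of the 5. Serpina3k, of the mouse antichymotrypsin group, reached 14989 CPM (lowest 10235, highest 22230.5). Per kilobase of annotated exon, the LIV medians were 7287 CPM for Serpina3k, 6110.4 for Serpina1e, 4634 for Serpina1c, 2259 for Serpina1a, 1984 for Serpina1b and 1406 for Serpina1d. The next member, Serpinf2, stood at 426. All annotated exons of a gene were joined, whichever transcript was expressed, so this order depends on the annotation and is uncertain. Serpinc1, at 2606 CPM in LIV, stood below Serpinf2, at 990.4 CPM, on this scale.

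The 5 antitrypsin genes lie on chromosome 12 (GRCm38), and their coding sequences were 96.3 to 98.5% identical in pairs, so that reads could be shared among them. Of all 150-base stretches of their transcripts, 50.5% in Serpina1c, 35.1% in Serpina1a, 23.3% in Serpina1d, 11.9% in Serpina1b and 7.36% in Serpina1e also occurred in another gene, and the study kept uniquely mapped reads only. The levels of these genes relative to each other are uncertain to that extent. The copies differ most where the protein meets its target, which is why the 90 coding bases around the reactive centre loop are shown. In these stretches, from the coding strand of the Gencode transcripts, capitals mark the 16 positions at which the copies are not all alike, and a pair differed at 5 to 10 of them.
Serpina1a: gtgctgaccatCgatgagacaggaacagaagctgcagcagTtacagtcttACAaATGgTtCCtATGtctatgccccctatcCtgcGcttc
Serpina1b: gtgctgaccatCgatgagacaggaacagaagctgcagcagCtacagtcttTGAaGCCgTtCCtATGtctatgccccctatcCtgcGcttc
Serpina1c: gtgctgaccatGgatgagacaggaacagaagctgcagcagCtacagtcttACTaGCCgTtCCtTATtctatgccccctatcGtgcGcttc
Serpina1d: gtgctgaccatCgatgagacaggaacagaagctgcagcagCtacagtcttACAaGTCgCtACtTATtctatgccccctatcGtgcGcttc
Serpina1e: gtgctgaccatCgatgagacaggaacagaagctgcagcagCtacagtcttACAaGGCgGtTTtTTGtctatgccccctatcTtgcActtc
Variable positions cluster in the middle of the stretch, while its first part is nearly the same in all 5 copies.

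Their promoters are shown as well. The 76 bases lie upstream of the RefSeq start sites on the minus strand of chromosome 12 (GRCm38.p6), and are given because the 5 genes were high in the same organ. Capitals mark GTTAAT, which is 1 arm of the palindromic site of the liver factor HNF1.
Serpina1a, chr12:103863629-103863704: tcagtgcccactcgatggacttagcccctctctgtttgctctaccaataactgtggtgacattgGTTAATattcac
Serpina1b, chr12:103738204-103738279: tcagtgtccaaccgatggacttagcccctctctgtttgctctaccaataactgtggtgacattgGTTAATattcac
Serpina1c, chr12:103904966-103905041: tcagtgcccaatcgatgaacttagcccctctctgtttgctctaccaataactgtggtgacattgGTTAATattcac
Serpina1d, chr12:103773638-103773713: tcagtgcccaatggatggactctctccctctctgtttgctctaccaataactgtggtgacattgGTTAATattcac
Serpina1e, chr12:103956964-103957039: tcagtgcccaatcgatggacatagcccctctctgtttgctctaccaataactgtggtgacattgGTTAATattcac
All 5 copies hold these letters 16 to 78 bases before their start sites. Counting both strands of windows of 250 bases before to 50 after a start, 2332 of 32851 promoters (7.1%) held GTTAAT, and 12 of the 62 promoters found for 53 members did. The letters were chosen after the sequences had been seen, and their presence is a description of the sequence only.

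Inhibitors of clotting and fibrinolysis followed. Antithrombin, Serpinc1, stood at 2606 CPM (lowest 1981, highest 3182) in LIV and its highest library elsewhere, the pgWAT library with hepatocyte markers (18 h replicate 2), at 67.8 CPM. Without the 7 libraries it reached at most 14.9 CPM outside LIV. Heparin cofactor II, Serpind1, another inhibitor of thrombin, had 484 CPM (lowest 418, highest 657) in LIV, and alpha-2-antiplasmin, Serpinf2, 990.4 CPM (lowest 820.2, highest 1508). Serpind1 was also present in the nervous system, with a BST median of 14 CPM. The protein Z-dependent inhibitor Serpina10 was at 297 CPM (lowest 229.8, highest 593) in LIV. In psWAT its level was 17.4 CPM (lowest 1.05, highest 34.3), and none of the remaining 7 organs had a median above 0.251 CPM. Serpina5, the protein C inhibitor, was near the floor, with 0.41 CPM in LIV.

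Of the hormone carriers, corticosteroid-binding globulin, Serpina6, was at 495 CPM (lowest 381, highest 871) in LIV and at or below 14.3 CPM in every other library, or 3.24 without the 7, the highest again being pgWAT 18 h replicate 2. Thyroxine-binding globulin, Serpina7, was low even in LIV, 16.3 CPM (lowest 6.15, highest 43.2). C1 inhibitor, Serping1, and pigment epithelium-derived factor, Serpinf1, were highest in LIV too, at 850.3 CPM (lowest 663, highest 1208) and 995 CPM (lowest 754, highest 1133), but ran through all organs, with pgWAT medians of 335 and 124.4 CPM. Vaspin, Serpina12, an adipokine named for visceral fat, had 152.6 CPM (lowest 11.9, highest 215) in LIV and 40.8 CPM (lowest 7.83, highest 79.9) in STM, whereas its pgWAT median was 0 CPM with a highest library of 1.04. Serpina3m, at 172 CPM in LIV, shares annotated exons with Serpina3k, and the counting rule used discards reads in such overlaps.

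STM was the organ of the chromosome 1 clade b cluster. Within 0.749 Mb (chr1:106861173-107610484, GRCm38) lie 12 members from Serpinb5 to Serpinb8, and 11 of them had their highest median in STM, the exception being Serpinb3d, which had no count. Serpinb12 was the most abundant, at 296 CPM (lowest 44.5, highest 538) over 17 libraries, against at most 1.07 CPM in any library of another organ. Maspin, Serpinb5, known from mammary and squamous epithelia, had 63.6 CPM (lowest 11.7, highest 103.1), and Serpinb2, plasminogen activator inhibitor-2, 35.4 CPM (lowest 4.78, highest 72.4). The squamous cell carcinoma antigen homologues Serpinb3a and Serpinb3c stood at 21.3 CPM (lowest 2.49, highest 41.3) and 13.6 CPM (lowest 2.05, highest 24.6), and Serpinb3b at 2.34 CPM (lowest 0.597, highest 5.73). Serpinb11 and Serpinb13 had medians of 14.8 and 8.11 CPM, and Serpinb7 and Serpinb10 of 8.83 and 4.06. Serpinb8, which inhibits furin, was not particular to STM, where its median was 22.5 CPM, beside 19.1 in pgWAT. Serpinb3b and Serpinb3c, and Serpinb2 and Serpinb10, share annotated exons, and their separate values are uncertain. Of their 150-base stretches, 0% in Serpinb3b and Serpinb3c, 5.5% in Serpinb2 and 3.7% in Serpinb10 also occurred in another gene.

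These values ran with the squamous markers of the same library, and the part of the mix of tissue in them was not tested. The 12 squamous epithelium markers, among them Krt5, Krt14 and Dsg3, summed to 1212 to 13997 CPM over the 17 STM libraries, and the cluster summed to 84.0 to 847 CPM, a 10.1-fold spread. Set against the marker sum of the same library, the cluster stood at 4.89 to 8.68% of it, with a median of 6.24%. The lowest libraries for both sums were 22 h replicate 1 (markers 1212, cluster 84.0 CPM) and 8 h replicate 2 (1859 and 117.7 CPM), while the other libraries of the same time points were high. Gastric gland markers were present in every library, at 102963 to 363643 CPM. Serpina12, on another chromosome, was at 7.83 CPM in 8 h replicate 2 and 72.7 in 8 h replicate 3, and stood at 6.4 to 12.5% of the cluster sum in the 17 libraries (median 8.8%).

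**Figure D2:**
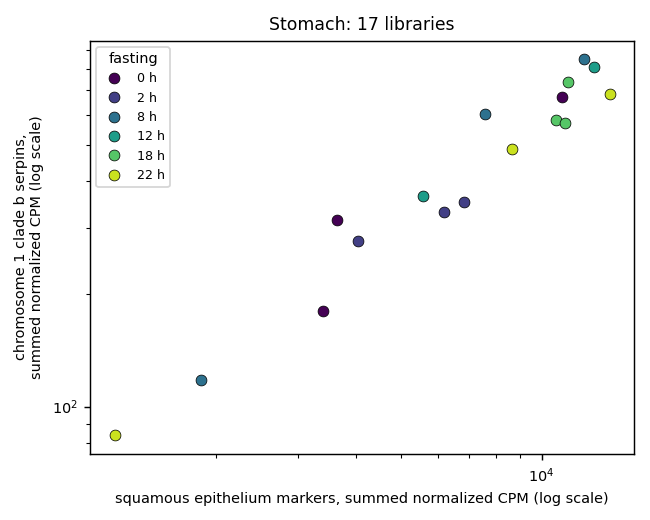
Summed normalized CPM of the 12 chromosome 1 clade b serpins (vertical) against that of 12 squamous epithelium markers (horizontal), both on log scales, for the 17 STM libraries, coloured by hours of fasting. The libraries lie along a rising band from the lowest pair (22 h replicate 1) upward, and libraries of the same time point are spread along it.

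In the nervous system the leading members were neuroserpin, Serpini1, an inhibitor of tissue plasminogen activator secreted by neurons, and protease nexin-1, Serpine2, which inhibits thrombin and urokinase. Serpini1 was highest in OB, 487 CPM (lowest 436, highest 546), followed by CBL, 209 CPM (lowest 175, highest 238), BST, 207 CPM (lowest 182.6, highest 219.6), and BRN, 180.4 CPM (lowest 86.4, highest 241). Those last 3 ranges overlapped, and the highest library outside the nervous system was at 83.6 CPM, in psWAT 12 h replicate 3, the library with cerebellar markers, and the next at 14.3. Serpine2 had 264 CPM (lowest 216, highest 311) in OB and 256 CPM (lowest 223, highest 276) in BST, which overlapped, 171.2 CPM (lowest 151.9, highest 209) in BRN and 112.1 CPM (lowest 74.8, highest 131.6) in CBL. Against the mean of the other 8 organs, Serpini1 was higher in OB by a log2FC of 5.12 ± 0.11 (SE, edgeR adjusted p = 4.93e-91), and Serpine2 by 2.27 ± 0.12 (1.13e-42).

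Serpinb1b, a copy of the neutrophil elastase inhibitor gene Serpinb1a, had its highest levels in BST and CBL. It had 32.8 CPM (lowest 21.6, highest 50.3) in BST and 9.22 CPM (lowest 6.42, highest 13.4) in CBL, then 1.7 CPM (lowest 0, highest 4.07) in BRN, with medians of at most 0.505 CPM elsewhere. Its BST libraries did not overlap with those of any other organ. Serpina9, described in germinal centre B cells, was at 9.59 CPM (lowest 3.08, highest 12.8) in BRN and 1.73 CPM (lowest 0.929, highest 2.4) in BST, although B-cell markers summed to a median of 0.469 CPM in BRN. It was also present in LIV, 13.9 CPM (lowest 6.76, highest 35.6), and STM, 5.21 CPM (lowest 1.01, highest 13.7). Its exons overlap those of Gm28577, while 0% of its 150-base stretches occurred in another gene. Serpina3n, an acute-phase serpin of astrocytes and other cells, reached 33.5 CPM in BST, 26.1 in OB and 14.1 in BRN, but 2.81 in CBL.

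In the 3 fat depots, Serping1 and Serpinh1 were among the abundant members throughout. In pgWAT 4 members had close medians, namely Serpina3n and Serpina3c of the antichymotrypsin group, at 358 CPM (lowest 40.1, highest 462) and 340.2 CPM (lowest 54.3, highest 584), Serpinh1 at 348 CPM (lowest 148.3, highest 539) and Serping1 at 335 CPM (lowest 173, highest 467). The low value of Serpina3n and of Serpina3c was 22 h replicate 2, in which adipocyte markers summed to 2905 CPM, against a median of 25651. Serpina3b, 7.56 CPM (lowest 2.59, highest 21.8), was found in pgWAT above every library elsewhere, and Serpina3i and Serpina3j were at 2.08 and 1.88 CPM. In iBAT the collagen chaperone Hsp47, Serpinh1, led per kilobase of annotated exon with 97.8 CPM, ahead of Serping1 with 20.8 and Serpinf1 with 18.7. The order of the members on this scale again depends on the annotation. Serpina3n was higher in pgWAT than in the mean of the other organs by a log2FC of 3.95 ± 0.11 (SE, edgeR adjusted p = 8.49e-76), and Serpinh1 in iBAT by 2.55 ± 0.10 (2.03e-56).

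Serpina1f and Serpina16 had their highest means in pgWAT through a few libraries. Serpina1f was at 3953 CPM in 22 h replicate 2, 782 in 2 h replicate 2, 761 in 18 h replicate 3 and 136.8 in 22 h replicate 3, and its median over the 18 libraries was 0.986. These are the 4 libraries with epididymis markers, and in the other pgWAT libraries Serpina1f reached at most 8.35 CPM. Serpina16 was at 106 and 87.4 CPM in 18 h replicate 3 and 22 h replicate 2, and at most 1.07 in those others. In 18 h replicate 2, the library with hepatocyte markers, Serpina3k stood at 471 CPM and Serpina1e at 439, against pgWAT medians of 10.9 and 0.549.

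In psWAT the most abundant member was Serping1, at 115.7 CPM (lowest 54.1, highest 204), below its level in LIV and pgWAT. The members with their highest median in psWAT included several known from leukocytes. Serpina3g, found in activated lymphocytes, was at 72.0 CPM (lowest 5.35, highest 176) over 17 libraries, and Serpinb9, the inhibitor of granzyme B, at 60.2 CPM (lowest 24.7, highest 118.2). Serpinb6b, a relative of the cathepsin G inhibitor Serpinb6a, was at 49.7 CPM (lowest 7.91, highest 103.9), Serpinb1a at 63.2 CPM (lowest 6.42, highest 116.3) and Serpina3f at 8.78 CPM (lowest 0.446, highest 28). Serpinb6b was higher in psWAT than in the mean of the other organs by a log2FC of 4.30 ± 0.13 (SE, edgeR adjusted p = 4.61e-71), and Serpinb9 by 2.67 ± 0.09 (1.51e-63). The psWAT libraries held B-cell markers at a sum of 48.8 to 1599 CPM and T-cell markers at 90.6 to 832, while no other organ had a median above 11.4 CPM for either list. Adipocyte markers ranged from 319 to 22639.8 CPM. In 8 h replicate 1, with the fewest lymphocyte and the most adipocyte markers, Serpina3g was at 7.47, Serpinb6b at 7.91 and Serpina10 at 1.05 CPM, but Serpina3c at 153.3. In 0 h replicate 3, which had the highest B-cell sum, the same genes stood at 94.3, 55.1, 29.3 and 8.41 CPM. Serpina3c and the other 3 genes varied in opposite directions between these libraries, and the part of the mix of tissue in the psWAT levels was not tested.

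**Figure D3:**
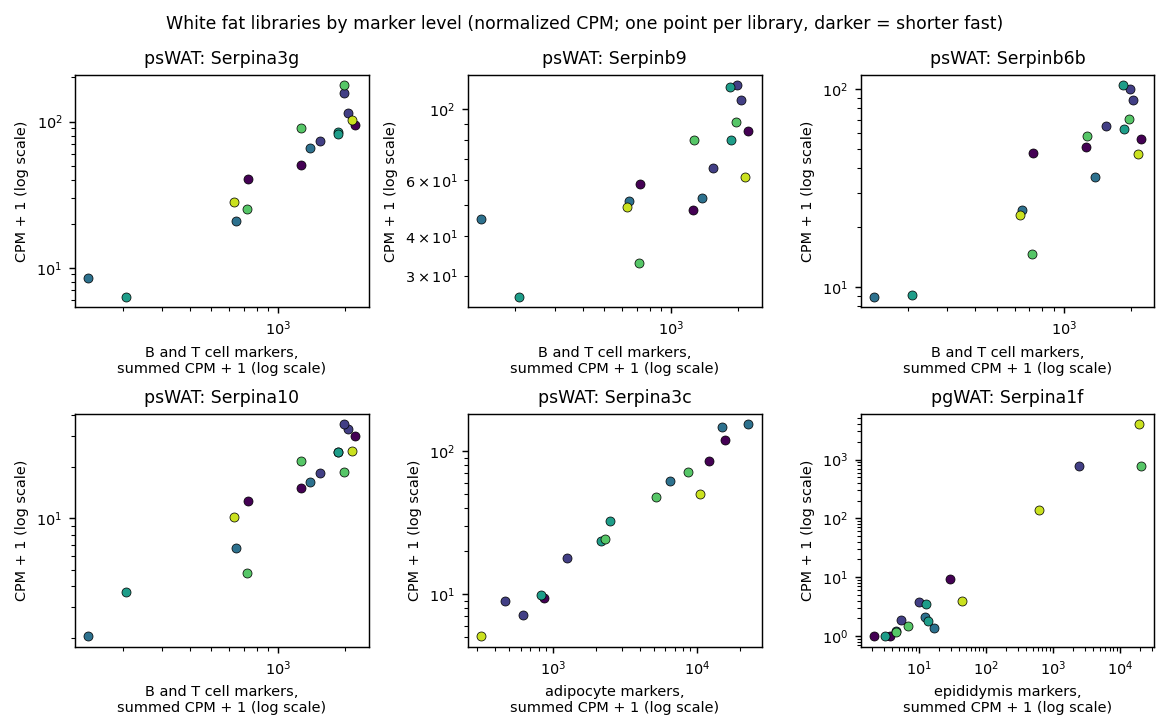
Normalized CPM + 1 of 6 members against the summed marker CPM + 1 of another cell type, both on log scales, with one point per library and darker colours for shorter fasts. In psWAT, Serpina3g, Serpinb9, Serpinb6b and Serpina10 are higher where B- and T-cell markers are, Serpina3c is higher where adipocyte markers are, and in pgWAT Serpina1f is above 100 CPM only in the 4 libraries with epididymis markers.

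All of the following 4 members had a median above 10 CPM in all 9 organs. Serpinh1 ranged from 16.7 CPM to 348 in pgWAT, Serpinb6a from 13.1 in LIV to 174 in pgWAT, Serpinf1 from 10.7 to 995 in LIV, and Serpine2 from 16.1 to 264 in OB. The exons of Serpinb6a overlap those of 3 genes on the opposite strand, among them Nqo2 and Ripk1, and the strand setting of the counting is not given in the sources used here. Where strand was ignored, reads of the partners could not be told apart.

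The remaining 17 members had no median above 1 CPM. No count was found in any library for Serpinb3d, Serpinb6d, Serpinb9d, Serpinb9f and Serpinb9g. A further 9 had counts but too few for any test (Serpina3a, Serpina5, Serpinb1c, Serpinb6c, Serpinb6e, Serpinb9c, Serpinb9e, Serpine3 and Serpini2), with at most 2.38 CPM in a library. Pancpin, Serpini2, known from the exocrine pancreas, was among these with a highest count of 5. The other 3 were Serpina1f, Serpina16 and the annotated pseudogene Serpina3h, which had 0.758 CPM in psWAT. All of the genes without a count except Serpinb3d lie in the chromosome 13 cluster of 15 members, of which 6 had a median above 1 CPM in some organ. The share of 150-base stretches also found in another gene was 38.6% for Serpinb9f, 30.9% for Serpinb9g, 1.18% for Serpinb9d and 0% for Serpinb6d, so that in all 4 most stretches were unique.

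Fasting moved few serpins past the threshold. Within each organ, every time point was compared with 0 h, and 18 and 22 h together with 0 and 2 h together, the latter passing at an edgeR adjusted p under 0.05. At some time point against 0 h, 1 of 29 members was called in LIV (4.16% of all genes), 2 of 16 in BRN (5.93%) and 2 of 13 in iBAT (29.8%). EdgeR called 0 members in each of the other 6 organs. The share of all genes called was 8.75% for STM, 0.676% for CBL, 0.544% for OB, 0.00609% for pgWAT and 0% for both psWAT and BST. With p left unadjusted and a limit of 0.05, some time point passed for 13 members in pgWAT, 12 in STM, 10 in CBL, 7 in psWAT and 5 each in BST and OB. DESeq2 called 4 members in STM, 2 in pgWAT, 1 in psWAT and 0 in OB, CBL and BST. The 4 in STM were Serpina1b, Serpina1c, Serpina1d and Serpina3k, which had their highest medians in LIV. The part of hepatocyte RNA in those STM calls was not tested. Shares of all genes at the unadjusted limit or with DESeq2 are not given, so these counts cannot be set against all genes.

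Late against early, 9 of 195 pairs of member and organ passed (4.62%), against 9.36% of the 144217 pairs of any gene and organ. LIV had 6 of 29 (15% of all genes), and BRN (7.43%), STM (22.7%) and iBAT (36%) had 1 each. EdgeR passed 0 members in OB (4.87%), CBL (2.48%), BST (0.0775%), pgWAT (0.00609%) and psWAT (0.0%), with 4, 4, 2, 11 and 2 members at an unadjusted p under 0.05. DESeq2 passed 1 in pgWAT (Serpinf2), 1 in psWAT (Serpina3n) and 0 in OB, CBL and BST. The percentages in brackets are edgeR shares of all genes at the adjusted limit. They are no background for the counts at an unadjusted p or with DESeq2. Serpinf2 in pgWAT was at 51.8 CPM in 18 h replicate 3 and 26.5 in 18 h replicate 2, which are libraries with epididymis and hepatocyte markers, and at no more than 3.24 in the others.

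Sequencing lane, as the column names of the count table number it, followed the length of the fast in 4 organs. In OB, STM, LIV and pgWAT no lane held both early and late libraries, so that there the late difference cannot be told apart from lane except through the few libraries of other times. CBL and BST each ran on a single lane, psWAT early and late libraries shared their lanes, and in BRN 4 early and 5 late libraries lay on shared lanes. With lane as a term in edgeR, which in LIV, STM and OB rests on the 3 mice at 8 h, the count of members that passed late against early was 0 in LIV, STM, BRN, OB, pgWAT and psWAT (8, 0, 2, 1, 0 and 3 at an unadjusted p under 0.05), and 0.057% of all genes passed in LIV and none in the other 5. No share of all genes at the unadjusted limit is given for the fit with lane, so those counts cannot be set against all genes. In LIV the 6 members kept their direction in that fit (Serpina11 0.60 ± 0.21, Serpine2 -1.79 ± 0.46 and Serpina1d -0.70 ± 0.21 as log2FC ± SE, edgeR adjusted p = 0.175, 0.0996 and 0.133).

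In LIV, Serpina11 rose and several plasma inhibitors fell, most of them by less than 2-fold. Serpina11, a liver member of the chromosome 12 cluster whose target is not established, had 98.9, 93.3 and 102.2 CPM at 0 h, 121.1, 135.6 and 134.5 at 2 h, 119.2, 130.1 and 118.9 at 8 h, 147.7, 163.8 and 158.8 at 12 h, 163, 204 and 153.2 at 18 h and 154.5, 150.4 and 168.2 at 22 h. Every fasted mouse was above the 3 fed mice, and late against early the change was log2FC 0.56 ± 0.09 (SE), edgeR adjusted p = 4.03e-04, with all 6 late values above all 6 early ones. Against 0 h the log2FC was 0.65 at 12 h, 0.83 at 18 h and 0.68 at 22 h, each with an edgeR adjusted p of at most 0.00587, and with lane as a term the log2FC was 0.69, 0.87 and 0.72, with larger errors, and none of the 3 passed (edgeR adjusted p = 0.0813, 0.0678 and 0.213). A share of 29.9% of its 150-base stretches also lies in the overlapping gene Gm28577, so its level is uncertain.

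Of the alpha-1-antitrypsin genes 3 of 5, and the thrombin inhibitors Serpinc1 and Serpind1, were lower at 12 h of fasting than in fed mice. Serpina1d had 2733, 2769 and 2310.3 CPM at 0 h, 1979, 2711 and 2226 at 2 h, 1835, 1837 and 2276 at 8 h, 1631, 1369 and 1591 at 12 h, 1635, 1749.8 and 2055 at 18 h and 1939.7, 1859 and 2138 at 22 h. All 3 mice at 12 h were below all fed mice. Without a threshold on the fold, 7 of 29 members were lower at 12 h (6.18% of all genes) and 1 was higher (5.68%). Serpina1d fell by 0.79 on the log2 scale (SE 0.14, edgeR adjusted p = 0.00179), Serpinc1 by 0.58 (SE 0.12, 0.00532), Serping1 by 0.55 (SE 0.14, 0.0144) and Serpind1 by 0.47 (SE 0.11, 0.0106). Serpina1b, Serpina1c and Serpinf1 fell by 0.37 to 0.39, while Serpina1a (-0.36 ± 0.13, edgeR adjusted p = 0.0655) and Serpina1e (-0.45 ± 0.19, 0.112) did not pass. No lane held both 0 h and 12 h libraries, and with lane as a term 2 members were lower, Serpina1d (edgeR adjusted p = 0.0149) and Serping1 (0.0458). Each of the 7 log2FC was larger in size in that fit, for example -0.76 for Serpinc1, -0.61 for Serpind1 and -0.49 for Serpina1b, as were the errors. With replicate 3 of every time point left out 4 members were lower at 12 h, with replicate 1 left out 2 (Serpina1d and Serpinc1) and with replicate 2 left out 0. With no filter on low counts Serpina1b, Serpina1c and Serpinf1 did not pass (edgeR adjusted p = 0.194, 0.196 and 0.121). With offsets for exon length Serpina1c did not pass (edgeR adjusted p = 0.0727), and with DESeq2 8 members were lower in place of 7. At 18 h Serpina1d (-0.52 ± 0.14, edgeR adjusted p = 0.0198) and Serpina1c (-0.49 ± 0.12, 0.0125) were still lower, but neither passed with lane as a term (log2FC -0.86 and -0.67, edgeR adjusted p = 0.0705 and 0.108). By 22 h none of the 7 passed, and the values were 2909, 2804 and 2514 CPM for Serpinc1 at 22 h, beside 2232, 1981 and 2021 at 12 h and 3154, 3182 and 2835 at 0 h.

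Late against early, Serpina1d (log2FC -0.36 ± 0.10 (SE), edgeR adjusted p = 0.0159) and Serpind1 (log2FC -0.28 ± 0.08 (SE), edgeR adjusted p = 0.0214) were lower. Serpind1 had 639, 657 and 538 CPM at 0 h, 527, 624 and 590.0 at 2 h, 418, 483 and 485 at 8 h, 432, 474 and 433 at 12 h, 469, 463 and 552 at 18 h and 497, 472 and 464 at 22 h. Leaving out 2 h replicate 2 ended the pass of Serpina1d (edgeR adjusted p = 0.0586). Leaving out any single one of 0 h replicates 1 and 2, 2 h replicate 2 or 22 h replicate 3 ended that of Serpind1 (edgeR adjusted p = 0.0507 to 0.0604). In all, 6 of 18 alternatives ended the pass of Serpind1, lane as a term among them. The carriers Serpina6 (log2FC 0.38 ± 0.13 (SE), edgeR adjusted p = 0.0604) and Serpina7 (-0.28 ± 0.25, 0.493) did not pass (with DESeq2 the adjusted p of Serpina6 was 0.0487), nor did Serpina3k (-0.29 ± 0.11, 0.0763) or Serpina1e (-0.24 ± 0.13, 0.231). DESeq2 also passed Serpina1c (log2FC -0.24, DESeq2 adjusted p = 0.0143) and Serpina1b (-0.19, 0.0481) as lower. EdgeR passed neither (edgeR adjusted p = 0.0586 and 0.126). With 2 h replicate 1 left out, 12 members passed in edgeR in place of 6, and with 2 h replicate 2 left out 3. In 2 h replicate 1, Serpina1e was at 7544 and Serpina3n at 211 CPM, and in 2 h replicate 2 at 15778 and 783.

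Serpina3n, Serpine2 and Serpinb9 were the other members that fell in LIV. Serpine2 had 16.4, 15.3 and 30.1 CPM at 0 h, 16, 38.7 and 39.1 at 2 h, 21, 18 and 32.0 at 8 h, 12.5, 16.2 and 9.74 at 12 h, 10.1, 7.95 and 9.29 at 18 h and 15.6, 15.2 and 18.4 at 22 h. It was called at 18 h, when all 3 values lay below those of the fed mice (log2FC -1.18 ± 0.33 (SE), edgeR adjusted p = 0.0323), and passed late against early (log2FC -1.05 ± 0.23 (SE), edgeR adjusted p = 0.00593). Without replicate 2 of every time point the 18 h call was lost (edgeR adjusted p = 0.128), and likewise without replicate 3 (0.178) and with lane as a term (0.0721, log2FC -1.92). Serpinb9, at low levels of 3.37 to 8.77 CPM in LIV, was lower in all 6 late than in all 6 early libraries (log2FC -0.70 ± 0.18 (SE), edgeR adjusted p = 0.0149). Its adjusted p was 0.0631 without 2 h replicate 2 and 0.0566 with no filter on low counts. Serpina3n had 271, 275 and 310.2 CPM at 0 h, 211, 783 and 484 at 2 h, 151.3, 206 and 224 at 8 h, 179, 240.0 and 208 at 12 h, 219, 196.2 and 233.9 at 18 h and 232.3, 190.8 and 209 at 22 h. Its difference (log2FC -0.80 ± 0.22 (SE), edgeR adjusted p = 0.0251) included 2 mice at 2 h that stood above all others, and the pass was lost without any single one of 0 h replicate 3, 18 h replicates 1 and 2 or 22 h replicates 2 and 3 (edgeR adjusted p = 0.0512 to 0.0577). Late against early, hepatocyte markers summed to 134717 to 167117 and 141615 to 160748 CPM.

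**Figure D4:**
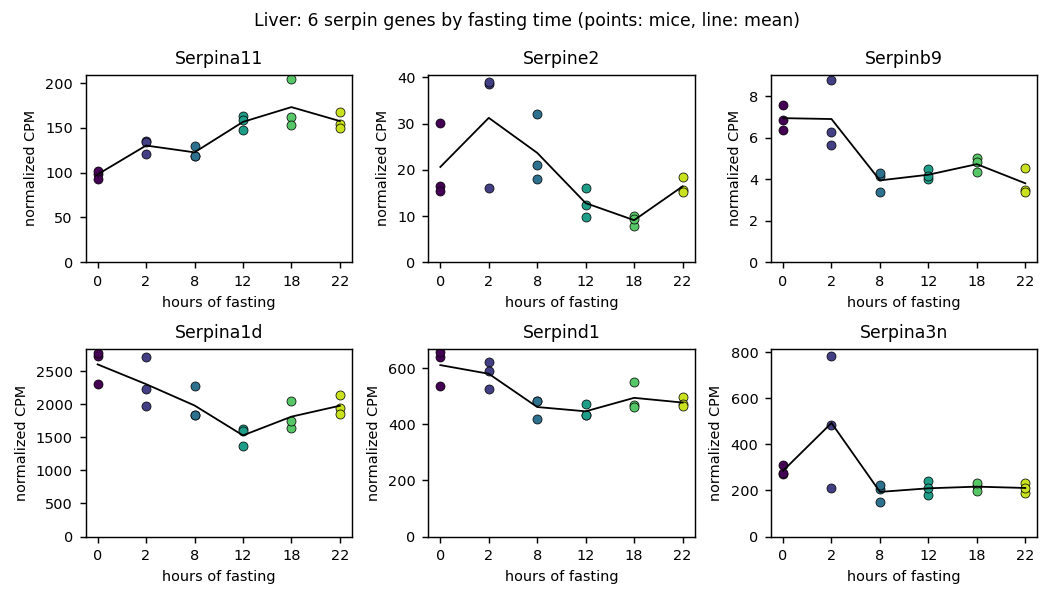
Normalized CPM of the 6 members that passed late against early in LIV, by hours of fasting. Points are single mice (3 per time point), the line joins the means, and every vertical axis starts at 0. Serpina11 lies higher in all fasted than in all fed mice, Serpina1d is lowest at 12 h, and Serpina3n has 2 high mice at 2 h.

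In BRN the cathepsin G inhibitor Serpinb6a rose, by 3.05-fold at 22 h (log2FC 1.61 ± 0.45 (SE), edgeR adjusted p = 0.0437). It had 25.3, 25.4 and 31.8 CPM at 0 h, 75.1, 35.2 and 43.5 at 2 h, 70.1 and 84.1 at 8 h, 56.1, 81.6 and 50.2 at 12 h, 122.7 and 51.7 at 18 h and 68.7, 127 and 40.01 at 22 h, with 2 mice each at 8 and 18 h, and every fasted mouse was above the 3 fed mice. Late against early the difference was log2FC 1.30 ± 0.33 (SE), edgeR adjusted p = 0.0328. C1 inhibitor, Serping1, was called at 12 h (log2FC 1.65 ± 0.43 (SE), edgeR adjusted p = 0.0332), from 9.13, 32.9 and 12.4 CPM at 12 h and 5.73, 6.72 and 6.85 at 0 h, of which replicate 2 at 12 h stood far above the rest. With lane as a term the late log2FC of Serpinb6a was 1.06 ± 0.38 (SE, edgeR adjusted p = 0.341), that at 22 h 1.64 (0.762) and that of Serping1 at 12 h 1.76 (0.179). The column names of the 3 fed libraries also begin with other digits than those of all 18 and 22 h libraries. Of the retained fasted libraries, only 2 h replicate 3 and 12 h replicate 3 share the digits of the fed ones. In these Serpinb6a was at 43.5 and 50.2 CPM. What the digits stand for is not given, and their part was not tested.

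These BRN calls depended on single libraries. The late pass of Serpinb6a was lost without any single one of 0 h replicates 1, 2 and 3, 2 h replicates 2 and 3, 18 h replicate 2 or 22 h replicates 1 and 2 (edgeR adjusted p = 0.0583 to 0.22), and with the 2 excluded BRN libraries restored it was 0.158. Without replicate 1 of every time point the adjusted p of its 22 h call was 0.736, without replicate 2 it was 0.0543, and for Serping1 these were 0.387 and 0.177. When BRN genes were split by exon length into 3 equal groups, the median late log2FC was 0.23 in the shortest and -0.29 in the longest. With this length trend taken out, the 22 h adjusted p of Serpinb6a was 0.133, the late one 0.0454 and that of Serping1 at 12 h 0.104. Oligodendrocyte markers summed to 6301 to 23455 CPM late and 5369.8 to 13003 early, with 1 of 5 higher, and their part in the result was not tested.

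In STM, Serpine2 rose late in the fast (log2FC 0.79 ± 0.23 (SE), edgeR adjusted p = 0.0207). It had 16.4, 16.7 and 12.6 CPM at 0 h, 16.8, 12.7 and 18.9 at 2 h, 12.7, 13.8 and 19.97 at 8 h, 21.5 and 27.2 at 12 h, 33.7, 19.9 and 34.7 at 18 h and 11.3, 29.7 and 30.8 at 22 h, with 2 mice at 12 h. Of the 6 late mice, 5 were above every early mouse, and 22 h replicate 1, at 11.3 CPM, was below all of them. The pass was lost without any single one of 18 h replicates 1 and 3 or 22 h replicate 3 (edgeR adjusted p = 0.0521 to 0.0557). With lane as a term its log2FC was 0.20 ± 0.53 (SE, edgeR adjusted p = 0.985). Serpine2 fell in LIV and rose in STM, and the difference between those organs was not tested. Between late and early STM, 6 of 10 gastric gland markers were lower and 3 of 3 neuron markers higher (summed 44.9 to 74.1 against 17.1 to 41.6 CPM), and the part of a changed mix in the result was not tested. None of the 11 expressed chromosome 1 clade b genes passed at any comparison in STM by edgeR or DESeq2 with all retained libraries, though with 22 h replicate 1 left out Serpinb10 passed late against early (log2FC 1.35 ± 0.44 (SE), edgeR adjusted p = 0.0371). In STM their values ran with the squamous markers. Serpinb12, for example, had 100.1, 395 and 182.8 CPM at 0 h, 153.7, 186 and 197 at 2 h, 356, 57.1 and 516 at 8 h, 227 and 538 at 12 h, 355, 497 and 348 at 18 h and 44.5, 296 and 397 at 22 h.

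In iBAT the collagen chaperone Serpinh1 fell late in the fast (log2FC -0.65 ± 0.23 (SE), edgeR adjusted p = 0.0358). It had 251, 219 and 544 CPM at 0 h, 204, 274 and 205 at 2 h, 239, 408 and 411 at 8 h, 277, 273 and 351 at 12 h, 229, 129.6 and 145.1 at 18 h and 169.3 and 211 at 22 h, with 2 mice at 22 h. The early group included 1 mouse, 0 h replicate 3, at more than the level of any other, and without it the adjusted p was 0.116. In all, any 1 of 0 h replicate 3, 2 h replicates 2 and 3, 18 h replicates 2 and 3 or 22 h replicates 2 and 3 left out ended the pass (edgeR adjusted p = 0.0534 to 0.125). Lane could not be fitted as a term in iBAT. Within lane 8, Serpinh1 had 229 CPM in 18 h replicate 1 beside 251 and 219 at 0 h, and within lane 5, 145.1 in 18 h replicate 3 beside 544 at 0 h and 204 and 274 at 2 h. Fibroblast markers were lower for 2 of 6 and endothelial markers for 4 of 5, and their part was not tested.

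At 22 h, Serpina3c (log2FC 1.07 ± 0.42 (SE), edgeR adjusted p = 0.0496) and Serpinb6a (log2FC 1.10 ± 0.42 (SE), edgeR adjusted p = 0.0455) were called higher in iBAT, each from 2 mice against 3. Serpina3c had 26 and 19.8 CPM at 22 h and 4.76, 12.3 and 17 at 0 h, and Serpinb6a 96.2 and 65.9 CPM at 22 h and 31.1, 27.1 and 60.6 at 0 h. Both 22 h values exceeded all 0 h values in each gene, and no lane held libraries of both times. The call at 22 h sat in an organ in which 29.7% of all genes were called, and in which the median late log2FC was 0.39 in the shortest and -0.50 in the longest of the 3 length groups. Neither gene was called when replicate 1 or 2 of every time point was left out, or when the excluded 22 h library was restored, where the adjusted p was 0.166 for Serpina3c and 0.167 for Serpinb6a. With the length trend taken out the log2FC was 0.60 for Serpina3c (edgeR adjusted p = 0.291) and 1.53 for Serpinb6a (0.0275). In all, the call was lost in 5 of 9 alternatives for Serpina3c and in 4 of 9 for Serpinb6a.

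In psWAT, Serpina3n had 64.2, 60.4 and 35.1 CPM at 0 h, 68.0, 36.6 and 109.6 at 2 h, 85.1, 60.1 and 114.1 at 8 h, 35.7, 28.3 and 13.2 at 12 h, 48.2, 53.6 and 33.7 at 18 h and 15.6 and 13.9 at 22 h, with 2 mice at 22 h. Its late log2FC was -1.24 ± 0.32 (SE, edgeR adjusted p = 0.622), which did not pass, while DESeq2 gave an adjusted p of 0.0496. Neuroserpin, Serpini1, differed late against early by 0.01 ± 0.05 in OB, 0.04 ± 0.05 in CBL and -0.26 ± 0.14 in BRN (edgeR adjusted p = 0.949, 0.73 and 0.234). In OB, CBL and BST the median member moved by -0.07, 0.01 and -0.03 on the log2 scale. In LIV these medians were -0.24 for the members and 0.01 for all genes.

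**Figure D5:**
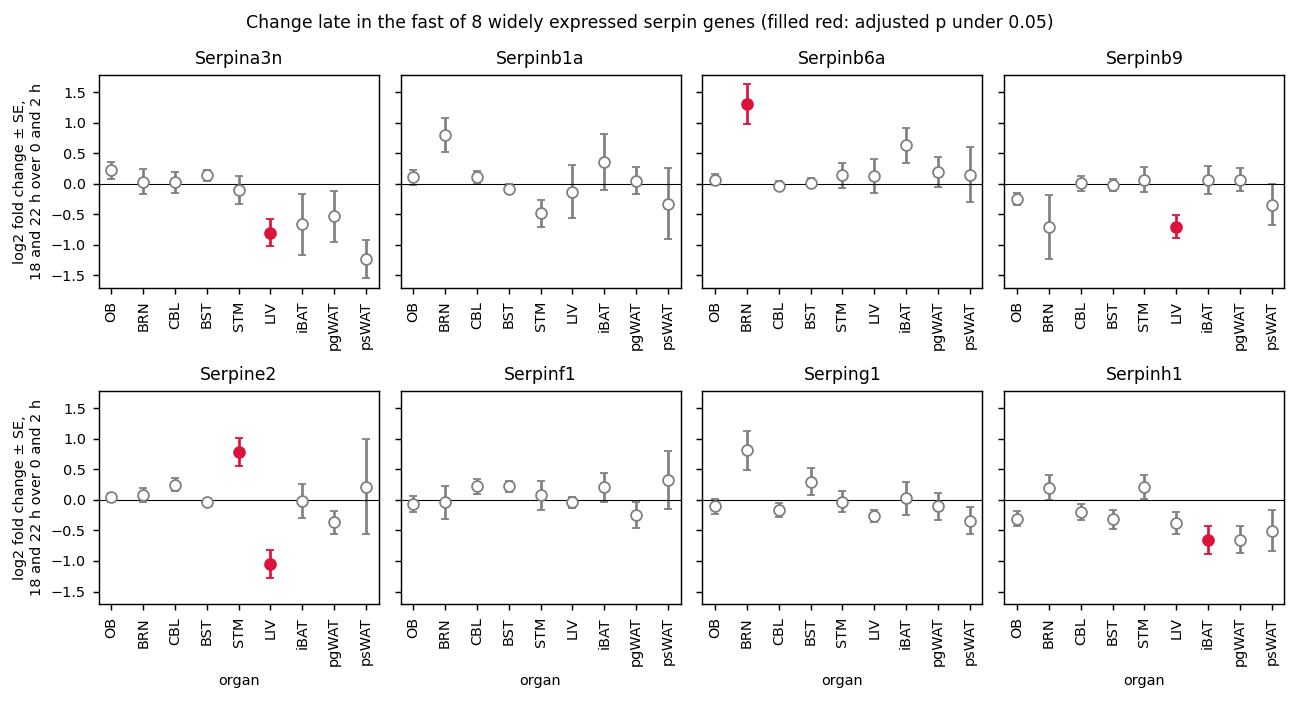
Log2 fold change with its standard error of 18 and 22 h over 0 and 2 h (vertical) in each organ (horizontal) for 8 members with a median above 1 CPM in all 9 organs. Filled red points have an edgeR adjusted p under 0.05, and a missing point was not tested. Red points lie in LIV for Serpina3n, Serpinb9 and Serpine2, in BRN for Serpinb6a, in STM for Serpine2 and in iBAT for Serpinh1.

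The systems that serpins regulate were counted in the same late comparison, from gene lists chosen by function, with earlier results of these data known. Of all genes tested, 15% passed in LIV. There, of 18 coagulation and fibrinolysis genes 1 rose and 5 fell, led by Cpb2 (log2FC -0.58 ± 0.11 (SE), edgeR adjusted p = 0.00235) and F9 (log2FC -0.34 ± 0.08 (SE), edgeR adjusted p = 0.00776), the genes of a carboxypeptidase that slows fibrinolysis and of clotting factor IX. Of 15 complement genes none rose and 1 fell, namely Masp1 (log2FC -0.71 ± 0.21 (SE), edgeR adjusted p = 0.0324), and of 22 acute-phase genes the pentraxin Crp (log2FC -0.73 ± 0.10 (SE), edgeR adjusted p = 1.46e-04) alone passed, with a fall. None of the 11 glucocorticoid response genes passed in LIV, where Serpina6 is made. The median log2FC of the coagulation list in LIV was -0.20. The lane differences given above apply to these lists too.

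Other organs gave different counts, to be read against the 36% of all genes that passed in iBAT, 22.7% in STM, 7.43% in BRN and 4.87% in OB. In iBAT and BRN the late log2FC also ran with exon length, as given above. The part of that trend in these counts was not tested. Coagulation and fibrinolysis genes were 0 higher and 3 lower of 6 in iBAT and 0 higher and 1 lower of 17 in STM. Complement genes were 2 higher and 0 lower of 11 in iBAT and 2 higher and 0 lower of 11 in BRN, which were C1qa and C1qb in both, 2 higher and 1 lower of 14 in STM and 0 higher and 1 lower of 12 in OB. The list of collagen chaperones and enzymes also holds Sparc and the collagen chain genes Col1a1, Col1a2 and Col3a1. It had 4 higher and 2 lower of 14 tested in iBAT, led by P4hb (log2FC 0.58 ± 0.13 (SE), edgeR adjusted p = 0.00301) and Ppib (log2FC 0.75 ± 0.17 (SE), edgeR adjusted p = 0.00397), both of which rose while Serpinh1 fell. STM had 2 higher and 2 lower of 14, led by Plod2 (log2FC 1.03 ± 0.20 (SE), edgeR adjusted p = 0.00265), and LIV 0 higher and 2 lower of 14, led by P4hb (log2FC -0.53 ± 0.09 (SE), edgeR adjusted p = 7.59e-04). In BRN the list had 2 higher and 0 lower of 14 (Ppib and Sparc) and in CBL 1 higher and 0 lower of 14 (P4hb), where 2.48% of all genes passed. A further list held proteases and related genes of cells, not all of them serpin targets (Ctsd and Prf1 are not). In it, iBAT had 4 higher and 0 lower of 12, led by Gzma (log2FC 2.85 ± 0.65 (SE), edgeR adjusted p = 0.00379), a granzyme of cytotoxic lymphocytes. BRN had 1 higher and 0 lower of 9, which was Ctsd (log2FC 0.95 ± 0.22 (SE), edgeR adjusted p = 0.0253). STM had 0 higher and 1 lower of 10, which was Cela1 (log2FC -2.84 ± 0.50 (SE), edgeR adjusted p = 0.0027). Pancreatic acinar markers, a list of which Cela1 is itself a member, summed to 28.6 to 79.9 CPM in the late and 129.7 to 781 in the early STM libraries, and their part in the fall of Cela1 was not tested. The acute-phase list had 4 higher and 0 lower of 15 in STM, 3 higher and 1 lower of 11 in OB, 2 higher and 0 lower of 10 in BRN and 4 higher and 1 lower of 12 in iBAT, with the metallothioneins Mt1 or Mt2 among the leading pair in each. Glucocorticoid response genes were 3 higher and 0 lower of 11 in STM, led by Tsc22d3 (log2FC 0.71 ± 0.14 (SE), edgeR adjusted p = 0.00248), 1 higher and 0 lower of 9 in BRN (Tsc22d3) and 1 higher and 1 lower of 10 in iBAT, where Tsc22d3 was higher and the receptor gene Nr3c1 lower. In pgWAT and psWAT no gene of any of the 6 lists passed.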

How the data were processed

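Per the labels and the study's methods, stranded mRNA libraries were sequenced in pairs, aligned to GRCm38.p5 with TopHat2 2.1.1 (unique reads only) and counted per Gencode gene with HTSeq 0.9.1, which discards reads that fit more than 1 gene. The authors deposited raw counts for 53686 gene rows, without normalization or filter, and the 5 libraries removed by the study's quality control were left out here too. The strand setting of the counting is not given in the sources used here.

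From the counts, TMM factors (0.549 to 1.42) and quasi-likelihood tests were computed with edgeR 4.0.16 in R 4.3.3, with DESeq2 1.42.0 as the alternative tool and Benjamini-Hochberg adjustment over all genes tested in a contrast. A gene was tested if at least 3 libraries held it at the CPM that 10 counts make in the median library. All retained libraries entered a single fit that compared organs, and each organ had a fit of its own for time. Code was tested on simulated data. Summaries used pandas 2.3.3 under Python 3.11.15, and plots matplotlib 3.10.9.

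Replicates were separate mice, and no 2 libraries agreed within sampling noise (lowest variance 1.49 times that of counting). A mouse gave all organs, so that organs were paired by animal, and a block by animal is an alternative. Across times, different mice shared only a number. Positions, exon lengths and shared stretches come from Gencode M21 on GRCm38, to which all 63 symbols matched, whereas the study counted with another Gencode release, so that exon models may differ, and promoters from RefSeq (GRCm38.p6). Named genes are, for each organ, up to 6 of the members whose mean is highest in that organ of all and at least 10 CPM (none in BRN, CBL and iBAT), every member called at a time point, the 6 smallest adjusted p late against early, and a list of members by role, and other members were named after their values were seen. The levels of 1 member are not reported here. For pathway lists the 2 smallest adjusted p are named. Members, lists and tests were chosen with earlier results of these data known. Floors cover counting error only, while standard errors include the spread between mice.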

Additional observations from a re-analysis of the deposited data

Results flagged for a closer look

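A signal was found in rows that the comparisons did not use. Serpina4-ps1, a serpin row named as a pseudogene and therefore outside the symbol rule, had a median of 2790.4 CPM in LIV (highest 6217), with more than 3 counts in 18 of 18 libraries, which is above what a count of 0 allows. It had a median of 0.406 CPM in STM and of 0 in pgWAT, where its highest library was at 13.9 CPM. The other 4 pseudogene rows were not above 3 counts in 3 or more libraries of any organ. Outlying samples among the 3 mice of a time point were not tested, and no member moved in opposite directions without overlap in any pair of organs.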

How the results depend on the processing

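No named value changed sign in any alternative. The 24 named differences between organs, of genes chosen for their highest mean there, are a description. Of differences between times, 0 of the 14 named ones kept their call in every alternative. Serpina11 and Serpine2 late against early in LIV lost theirs with lane as a term alone. Counts of members called moved by over 1.5 times as follows. With DESeq2, against the other organs 31 in iBAT (in place of 20), and at any time against 0 h 4 in STM (in place of 0), 2 in pgWAT (in place of 0), 1 in psWAT (in place of 0), and late against early 2 in BRN (in place of 1), 2 in iBAT (in place of 1), 1 in pgWAT (in place of 0), 1 in psWAT (in place of 0). With all 18 libraries of the organ, at any time against 0 h 0 in BRN (in place of 2), 1 in iBAT (in place of 2), 1 in psWAT (in place of 0), and late against early 0 in BRN (in place of 1), 2 in iBAT (in place of 1). With offsets for exon length, at any time against 0 h 1 in BRN (in place of 2). With lane as a term, at any time against 0 h 0 in BRN (in place of 2), and late against early 0 in BRN (in place of 1), 0 in STM (in place of 1), 0 in LIV (in place of 6). With no filter on low counts, at any time against 0 h 2 in CBL (in place of 0), 3 in LIV (in place of 1), and late against early 2 in OB (in place of 0), 3 in BRN (in place of 1), 1 in CBL (in place of 0), 3 in iBAT (in place of 1). With a replicate block, late against early 2 in iBAT (in place of 1). Leaving out 1 replicate or library at a time, the count at any time against 0 h was 0 to 4 in BRN, 0 to 5 in STM, 0 to 2 in LIV, 0 to 3 in iBAT, 0 to 4 in psWAT, and late against early was 0 to 1 in OB, 0 to 5 in BRN, 0 to 2 in STM, 3 to 12 in LIV, 0 to 2 in iBAT, 0 to 1 in pgWAT. Mice of different times shared only a replicate number (mean correlation of same-numbered deviations -0.0696 to 0.157 over organs). With the replicate block the members that passed late against early were 0 in OB, 1 in BRN, 0 in CBL, 0 in BST, 1 in STM, 6 in LIV, 2 in iBAT, 0 in pgWAT, 0 in psWAT, and at 12 h in LIV 4 members were lower (in place of 7, Serpina1b, Serpina1c and Serpinf1 not passing). Between organs a block by animal moved no count by over 1.5 times. Leaving out the 7 libraries with foreign markers, offsets for exon length and lane as a term were chosen after seeing the data. The cause of these shifts was not tested. Depth limits values under 0.985 CPM in the shallowest library, and 3 mice per time point limit small changes.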

Other observations

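Vaspin, Serpina12, varied more between the 3 mice at 18 h in LIV than between those at 12 h or at 22 h. It was at 146.1, 44.6 and 11.9 CPM at 18 h, at 145.8, 160.6 and 191.8 at 12 h and at 172, 133.5 and 120.9 at 22 h, and was chosen for this after its values were seen. Its 18 h log2FC against 0 h was -1.26 ± 0.56 (SE), with an edgeR adjusted p of 0.182. Thyroxine-binding globulin, Serpina7, in LIV was highest at 8 h, 30.1, 43.2 and 23.3 CPM, beside 16, 19.6 and 12.8 at 0 h and 6.15, 16.5 and 8.69 at 22 h (8 h against 0 h, edgeR adjusted p = 0.183).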
